A study of Mus musculus with 2 samples.

Results

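Mir122, Mir192, Mir194-2, Mir194-1 and Mir215 are 5 of the 2202 annotated miRNA genes counted in small-RNA libraries of the mouse adrenal gland, the paired gland above the kidney whose cortex makes steroid hormones and whose medulla makes catecholamines. Each is best known outside that gland, in liver, gut lining or kidney tubule. They were chosen by their symbols in GENCODE M21 as markers of neighbouring tissue, at a time when their values in these libraries were already known, the rise of Mir122 and Mir192 among them, so their levels and ratios are given as a description and without a test. All 5 were found, and all 5 had at least 10 counts over both libraries together, the minimum for giving a ratio. The libraries form 1 group, male B6CASTF1/J mice (an F1 hybrid of the C57BL/6J and CAST/EiJ strains) at 14 days of age, with no treatment and no other genotype in the labels. Replicates 2 and 1 came from separate biosamples that each name 3 males, so several animals may have been pooled in each, and both cite the same donor record. Levels are CPM, reads on the strand of the gene scaled to a total of 1000000 over all miRNA genes of the library. The unscaled totals were 3464837 in replicate 2 and 3024662 in replicate 1. Intervals are 95% intervals that cover counting error only.

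A miRNA is cut from a hairpin whose 5p and 3p arms can each give a mature strand of about the length sequenced here. The seed, bases 2 to 8 of that strand, guides it to matching sites in messenger RNAs, which it represses. miR-122 is the dominant miRNA of hepatocytes and is known there for its role in cholesterol and lipid metabolism. miR-192 and miR-215 share a seed and are paired in the genome with a copy of miR-194, and these pairs are typical of gut epithelium, kidney tubule and liver.

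The mature sequences, shown because they decide which reads a gene can collect, came from a set of RefSeq entries on GRCm38.p6 that held 4 of the 5 genes. The set is incomplete and had no entry for Mir122. The sequences are written 5′ to 3′ with the seed in capitals.
miR-192-5p (Mir192): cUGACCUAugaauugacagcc
miR-215-5p (Mir215): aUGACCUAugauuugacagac
miR-194-5p (Mir194-2 and Mir194-1): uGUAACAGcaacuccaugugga
miR-194-2-3p (Mir194-2): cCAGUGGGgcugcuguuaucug
miR-194-1-3p (Mir194-1): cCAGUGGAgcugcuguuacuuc
The 5p strands of Mir192 and Mir215 have the seed UGACCUA in common, and no other gene among the 1738 mature entries of the table carries it. They were identical at 18 of 21 bases, and differed from miR-192-5p to miR-215-5p by C1A, A12U and C20A, counted from the 5′ end. The 3p strands of Mir192 and Mir215, not shown, were identical at only 10 of 21 aligned bases. The seed GUAACAG likewise occurred only in miR-194-5p, which both Mir194 genes encode. The 3p strands of the Mir194 genes were identical at 18 of 22 bases, and 1 of the 4 differences, G8A from miR-194-2-3p to miR-194-1-3p, lies in the seed. The seed of miR-194-2-3p also occurs in Mir6926, with 1 count in each library, and Mir7055, with none, and that of miR-194-1-3p in no other gene of the table.

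The hairpins of the Mir194 genes are shown because their common stretch limits what was counted. Capitals mark bases that lie in a stretch of at least 20 bases found in another of the 2202 miRNA hairpins.
Mir194-2: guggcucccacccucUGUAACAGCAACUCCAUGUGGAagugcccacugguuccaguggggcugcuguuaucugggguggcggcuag
Mir194-1: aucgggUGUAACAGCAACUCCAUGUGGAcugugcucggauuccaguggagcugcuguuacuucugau
The common stretch was 22 bases long and coincided with miR-194-5p, so a read of exactly that strand has at least 2 places in the genome. Each read in the files stands in 1 row only, either a gene or a summary row, and reads that map to several places have a summary row. The counts of Mir194-2 and Mir194-1 therefore leave out exact copies of miR-194-5p, whose number was not measured. The longest stretch that Mir192 and Mir215 have in common was 10 bases, and neither those hairpins nor that of Mir122 had a stretch of 20 bases in any other miRNA hairpin.

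**Figure D1:**
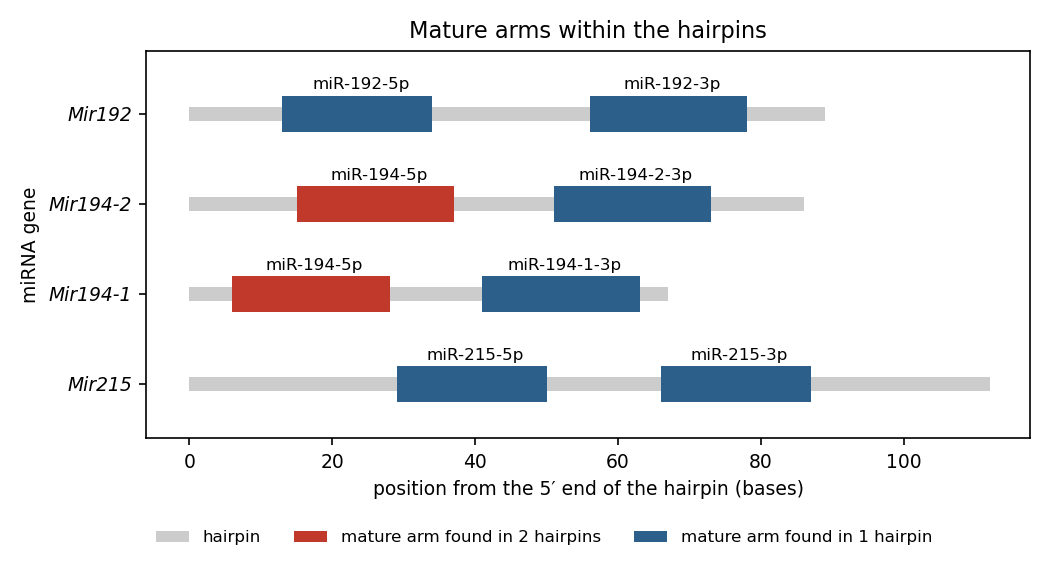
Mature arms (bars) along the hairpins (grey lines) of the 4 genes with a mature sequence in the RefSeq entries used, in bases from the 5′ end of the hairpin. Red marks an arm whose whole sequence stands in 2 hairpins, which is miR-194-5p, at bases 16 to 37 of Mir194-2 and 7 to 28 of Mir194-1, and blue marks an arm found in 1 hairpin.

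Mir122, on the plus strand of chromosome 18 from 65248861 to 65248926 (mm10) in an exon of the long non-coding RNA AC157910.3, was the most abundant of the 5 genes in both libraries. It had 171421 counts, 49474 CPM (interval 49241 to 49709), in replicate 2, against 11451 counts, 3786 CPM (3717 to 3856), in replicate 1. It stood at rank 4 of all miRNA genes in replicate 2 and at rank 40 in replicate 1. The counting intervals lay far apart, the mean was 26630 ± 32307 CPM (SD, n = 2), and the SD was 121% of the mean. The ratio of replicate 2 over replicate 1 was 13.1 (12.8 to 13.3). Of 413 tested genes, 2 had a larger log2 ratio in size. These were Mir802, a miRNA of liver, at 10.7 CPM in replicate 2 and 0.661 CPM in replicate 1, and Mir5107, at 0.289 CPM in replicate 2 and 4.30 CPM in replicate 1. Mir5107 had 14 counts in all and Mir802 39, against 182872 for Mir122.

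Its neighbours in the order of mean level did not share this spread. Mir375, a miRNA of neuroendocrine cells, came next above Mir122 at 29592 CPM in replicate 2 and 26615 CPM in replicate 1. Mir23b came next below at 24782 CPM in replicate 2 and 19151 CPM in replicate 1. In replicate 2 Mir122 was above both of these genes and in replicate 1 below both.

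Mir192 and Mir194-2 lie 115 bases apart on the plus strand of chromosome 19, Mir194-2 from 6264643 to 6264728 and Mir192 from 6264844 to 6264932. No other GENCODE M21 gene overlaps them, and the nearest genes outside the miRNAs are Atg2a, an autophagy gene 2307 bases to one side, and Gm14963, 3862 bases to the other. Mir192 had 802 counts, 231 CPM (216 to 248), in replicate 2, against 97 counts, 32.1 CPM (26.0 to 39.1), in replicate 1. Mir194-2 had 370 counts, 107 CPM (96.2 to 118), in replicate 2, against 111 counts, 36.7 CPM (30.2 to 44.2), in replicate 1. Both genes of the pair were higher in replicate 2 with no overlap of intervals, by a ratio of 7.22 (5.84 to 9.01) for Mir192 and 2.91 (2.35 to 3.63) for Mir194-2.

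Although they are neighbours, their ratios had intervals that did not overlap. Mir192 had 2.17 times the counts of Mir194-2 (1.91 to 2.46) in replicate 2 and 0.874 times (0.659 to 1.16) in replicate 1, so in replicate 1 their order could not be told at this depth. Exact copies of miR-194-5p are in neither library's count of Mir194-2, and their part in this ratio was not tested. The means were 132 ± 141 CPM for Mir192, at rank 177, and 71.7 ± 49.6 CPM for Mir194-2, at rank 207 (SD, n = 2). The genes next to Mir192 in mean level, Mir340 and Mir450b, were at 135 and 127 CPM in replicate 2 and at 142 and 135 CPM in replicate 1. Next to Mir194-2 stood Mir1306, at 86.9 CPM in replicate 2 and 56.9 CPM in replicate 1, and Mir187, at 54.3 and 88.9 CPM.

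Mir194-1 and Mir215 form the corresponding pair on the plus strand of chromosome 1, with 195 bases between them. Mir194-1, from 185313319 to 185313385, lies in an intron and Mir215, from 185313581 to 185313692, in an exon of the non-coding gene 2010103J01Rik, and both lie opposite an intron of Iars2, the mitochondrial isoleucyl-tRNA synthetase. Mir194-1 had 9 counts, 2.60 CPM (1.19 to 4.93), in replicate 2, against 7 counts, 2.31 CPM (0.930 to 4.77), in replicate 1. These intervals overlapped almost wholly, the ratio was 1.12 (0.372 to 3.55), and a difference was not detectable at this depth. Mir215 had 13 counts, 3.75 CPM (2.00 to 6.42), in replicate 2, against 38 counts, 12.6 CPM (8.89 to 17.2), in replicate 1. It was thus 3.35-fold lower in replicate 2 (1.74 to 6.85), the opposite direction to Mir192, which has the same seed. The means were 2.46 ± 0.200 CPM for Mir194-1 and 8.16 ± 6.23 CPM for Mir215 (SD, n = 2). Gm23634 and Mir291a, next to Mir194-1 in mean level, had the same counts as it in both libraries. Next to Mir215 stood Mir547, at 12.1 CPM in replicate 2 and 4.30 CPM in replicate 1, and Mir181b-1, at 7.22 and 8.60 CPM.

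**Figure D2:**
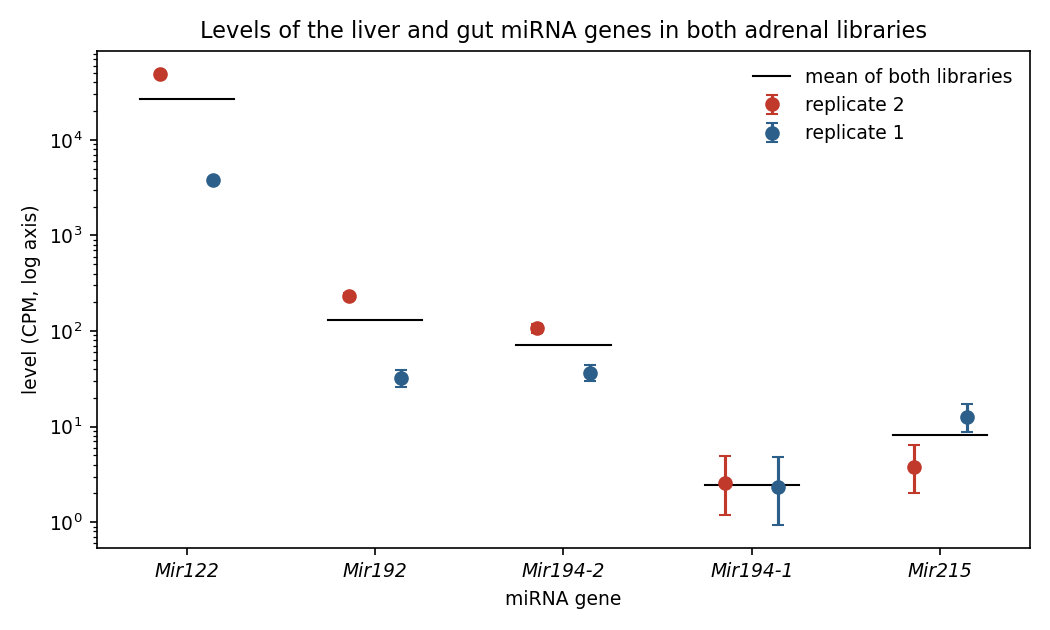
Level of each gene in CPM on a log axis, with replicate 2 to the left of replicate 1 and a black line at the mean of both. Bars are 95% counting intervals. Mir122, Mir192 and Mir194-2 are higher in replicate 2, Mir215 is lower, and the intervals of Mir194-1 overlap.

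The order of the 5 genes was Mir122, Mir192, Mir194-2, Mir194-1 or Mir215 in replicate 2, where the intervals of the last pair overlapped, and Mir122, Mir194-2 or Mir192, Mir215, Mir194-1 in replicate 1. Divided by hairpin length (66 to 112 bases), levels gave Mir122 750 CPM per base, Mir192 2.60 and Mir194-2 1.24 in replicate 2, and 57.4, 0.360 and 0.427 in replicate 1. On that scale Mir194-1 was at 0.0388 and Mir215 at 0.0335 CPM per base in replicate 2, and at 0.0345 and 0.112 in replicate 1. The reads are of mature strands rather than whole hairpins, so values per base do not rank the levels of these genes. Mir192 had 61.7 times the counts of Mir215 (35.9 to 116) in replicate 2 and 2.55 times (1.74 to 3.82) in replicate 1. These are counts over both arms of each hairpin, so the 5p arms with the common seed were not compared. Mir122 had 214 times the counts of Mir192 (199 to 229) in replicate 2 and 118 times (96.7 to 146) in replicate 1. Each of these ratios comes from 1 library, and their intervals cover counting error only. The genes together took 4.98% of miRNA counts (4.96 to 5.00) in replicate 2 and 0.387% (0.380 to 0.394) in replicate 1, nearly all of it Mir122. Without Mir122 the others held 0.0345% (0.0325 to 0.0365) in replicate 2 and 0.00836% (0.00737 to 0.00946) in replicate 1. None of the 5 genes had a count on the opposite strand in either library.

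Past a ratio of 2-fold, 3 of the 5 genes were higher in replicate 2, where 11.4% of the 413 tested miRNA genes were, and 1 was lower, where 10.4% were. The genes were listed with these ratios known, so nothing is read from these counts. Across all tested genes the median log2 ratio was 0.03 and the median size of a log2 ratio 0.41. The log2 ratios of the 5 genes were 3.71 for Mir122, 2.85 for Mir192, 1.54 for Mir194-2, 0.17 for Mir194-1 and -1.74 for Mir215. Among the 189 genes with a mean of at least 100 CPM, 3 had a log2 ratio of at least the size of that of Mir192, namely Mir122, Mir192 and, in the other direction, Mir31.

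**Figure D3:**
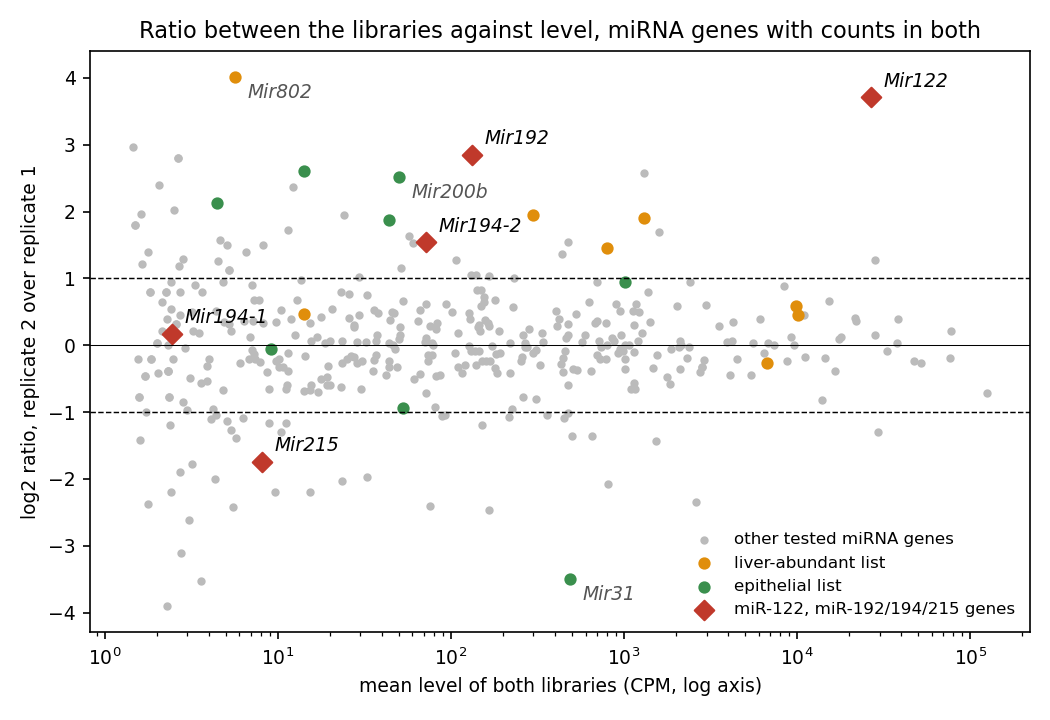
Log2 ratio of replicate 2 over replicate 1 against the mean level in CPM (log axis) for the 413 tested miRNA genes, with the 5 genes as red diamonds and dashed lines at 2-fold. Mir122 stands apart at 26630 CPM and a log2 ratio of 3.71, and Mir192, Mir194-2 and Mir215 lie outside the dashed lines.

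With 2 libraries the pattern of a gene is a single ratio, and genes are named for the nearness of their log2 ratio only. Nearest to Mir122 were Mir802, with a log2 ratio of 4.01, Mir344b at 2.97, Mir192 at 2.85 and Gm47295 at 2.80. Nearest to Mir192 were Gm47295 and Mir544 at 2.80, Mir344b at 2.97 and Mir200a at 2.61. Apart from Mir122, Mir192 and Mir200a, these genes had 37 counts or fewer in each library, and their ratios have wide intervals, 4.17 to 138 for Mir802 and 1.64 to 62.6 for Gm47295 and Mir544.

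Other miRNAs abundant in liver were set beside Mir122 as a list of 8, which like all lists here was made with earlier results of these data known. Of the 8, 4 were 2-fold or more higher in replicate 2, beside 11.4% of all 413 tested genes, and 0 were lower, beside 10.4%. The median log2 ratio was 1.02, against 0.03 over all tested genes. As the lists were made with results known, nothing is read from such counts. Mir148a was at 2047 CPM in replicate 2 and 548 CPM in replicate 1. Mir101b was at 1170 CPM in replicate 2 and 426 CPM in replicate 1, and Mir101a, of the same family of repressors of the histone methyltransferase Ezh2, at 475 and 123 CPM. Mir802 was the fourth. The remaining 4 stayed within 2-fold, among them the most abundant of the list, Mir30a at 11714 CPM in replicate 2 and 8518 CPM in replicate 1, Mir21a at 11784 and 7910 CPM, and Mir22 at 6119 and 7305 CPM. Mir33, which lies in the cholesterol regulator gene Srebf2, was at 16.5 CPM in replicate 2 and 11.9 CPM in replicate 1. The summed level of all 8 was 33337 CPM in replicate 2 and 24842 CPM in replicate 1, most of it from Mir30a, Mir21a and Mir22. None of the 8 was at 0 in both libraries, and the adrenal gland can express any of them. The part of liver RNA in the level of Mir122 was not tested.

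Epithelial miRNAs, listed for gut lining and kidney tubule like miR-192 and miR-194 but also for skin, lay on both sides of an even ratio. Of 8 listed, 4 were 2-fold or more higher in replicate 2, beside 11.4% of all 413 tested genes, and 1 was lower, beside 10.4%. The median log2 ratio of the list was 1.41. The higher ones were 3 genes of the miR-200 family, which represses the Zeb factors and keeps cells epithelial, and Mir205 at 7.22 CPM in replicate 2 and 1.65 CPM in replicate 1. Mir200b was at 85.1 CPM in replicate 2 and 14.9 CPM in replicate 1, Mir429 at 69.3 and 18.8 CPM, and Mir200a at 24.2 and 3.97 CPM. These 3 genes lie together on the minus strand of chromosome 4, from 156053905 to 156055750. They are thus not independent in the count and the median of the list. The other genes of the miR-200 family, both on chromosome 6, were not higher in replicate 2. Mir200c was at 36.1 CPM in replicate 2 and 69.1 CPM in replicate 1, and Mir141 at 8.95 and 9.26 CPM. Mir31, a miRNA of skin and gut epithelium among other tissues, was 11.3-fold lower in replicate 2, at 79.1 CPM against 895 CPM in replicate 1. Mir203, of skin and other epithelia, was at 1344 CPM in replicate 2 and 697 CPM in replicate 1. The list summed to 1654 CPM in replicate 2 and 1710 CPM in replicate 1, with no gene at 0 in both. Mir203 and Mir31, which differed in opposite directions, made up most of each sum. The part of epithelial RNA in the levels of Mir192 and Mir194-2 was not tested.

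Of 6 miRNAs abundant in kidney, 0 were 2-fold or more higher in replicate 2, beside 11.4% of all 413 tested genes, and 1 was lower, beside 10.4%. The median log2 ratio of the list was -0.10. Mir10a, the leading one and a miRNA of the Hox clusters, was at 38542 CPM in replicate 2 and 37425 CPM in replicate 1, and Mir10b at 10131 and 17870 CPM. Mir196b was the lower one, at 368 CPM in replicate 2 and 940 CPM in replicate 1, and Mir196a-2 was at 146 and 173 CPM. The list summed to 49250 CPM in replicate 2 and 56452 CPM in replicate 1. Mir10a and Mir10b made up nearly all of that sum, and the part of kidney RNA in it was not tested. Pancreatic acinar miRNAs were near the counting limit in both libraries. Mir216a had no count, Mir216b had 6 counts in replicate 2 and 0 in replicate 1, and Mir217 had 0 in replicate 2 and 5 in replicate 1. A count of 0 allows up to 0.866 CPM in replicate 2 and 0.992 CPM in replicate 1.

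Among the blood miRNAs, Mir223 alone was higher in replicate 2, Mir144 was close to even and the others were lower. Of 3 erythroid miRNAs 0 were higher and 1 lower by 2-fold in replicate 2, with a summed level of 19202 CPM in replicate 2 and 43959 CPM in replicate 1. The lower one was Mir451a at 17126 CPM in replicate 2 and 41828 CPM in replicate 1, while Mir144 was at 2053 and 2093 CPM and Mir486 at 23.7 and 37.0 CPM. Of 5 white blood cell miRNAs 1 was higher and 2 lower, with a summed level of 2610 CPM in replicate 2 and 4878 CPM in replicate 1. The lower ones were Mir142 at 825 CPM in replicate 2 and 2223 CPM in replicate 1 and Mir155 at 236 and 483 CPM, and the higher one was Mir223, a myeloid miRNA, at 89.5 and 31.1 CPM. Mir146 was at 900 CPM in replicate 2 and 1412 CPM in replicate 1, and Mir150, of lymphocytes, at 560 and 729 CPM. Of all 413 tested genes, 11.4% were higher and 10.4% lower by 2-fold. The medians were -0.65 on the log2 scale in both lists, against 0.03 over all tested genes, and the part of blood in the result was not tested.

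The neuroendocrine list, which the adrenal medulla is known to express, was close to even between the libraries. All 4 genes stayed within 2-fold, with a median log2 ratio of 0.00 and a sum of 34282 CPM in replicate 2 and 31136 CPM in replicate 1. Most of the 413 tested genes did so too, with 11.4% of them higher by 2-fold in replicate 2 and 10.4% lower. Below Mir375 came Mir7b at 4312 CPM in replicate 2 and 4120 CPM in replicate 1, Mir7-1 at 304 and 318 CPM, and Mir7-2 at 74.2 and 82.3 CPM. These genes are also expressed by other endocrine cells, such as those of gut and pancreatic islets, so they are not particular to the medulla. The lists held no miRNA particular to the adrenal cortex, so the labelled tissue was not checked by a marker of its own. The 4 brown fat miRNAs, for the fat around the gland, also stayed within 2-fold, as most tested genes did. They summed to 84453 CPM in replicate 2 and 73315 CPM in replicate 1, led by Mir378a at 83205 and 71827 CPM, with Mir455 at 895 and 1146 CPM, Mir193b at 347 and 335 CPM and Mir365-1 at 6.35 and 7.27 CPM. Nearly all of that sum was Mir378a, at rank 2 of all miRNA genes by mean level. The part of fat RNA in it was not tested. Striated muscle miRNAs summed to 12.1 CPM in replicate 2 and 8.93 CPM in replicate 1, and 4 of the 9, Mir133a-1, Mir133a-2, Mir133b and Mir1a-1, had no count. Mir206 was the leading one at 9.52 CPM in replicate 2 and 5.95 CPM in replicate 1. Copies of a gene that share a mature strand can lose reads as described for the Mir194 genes.

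**Figure D4:**
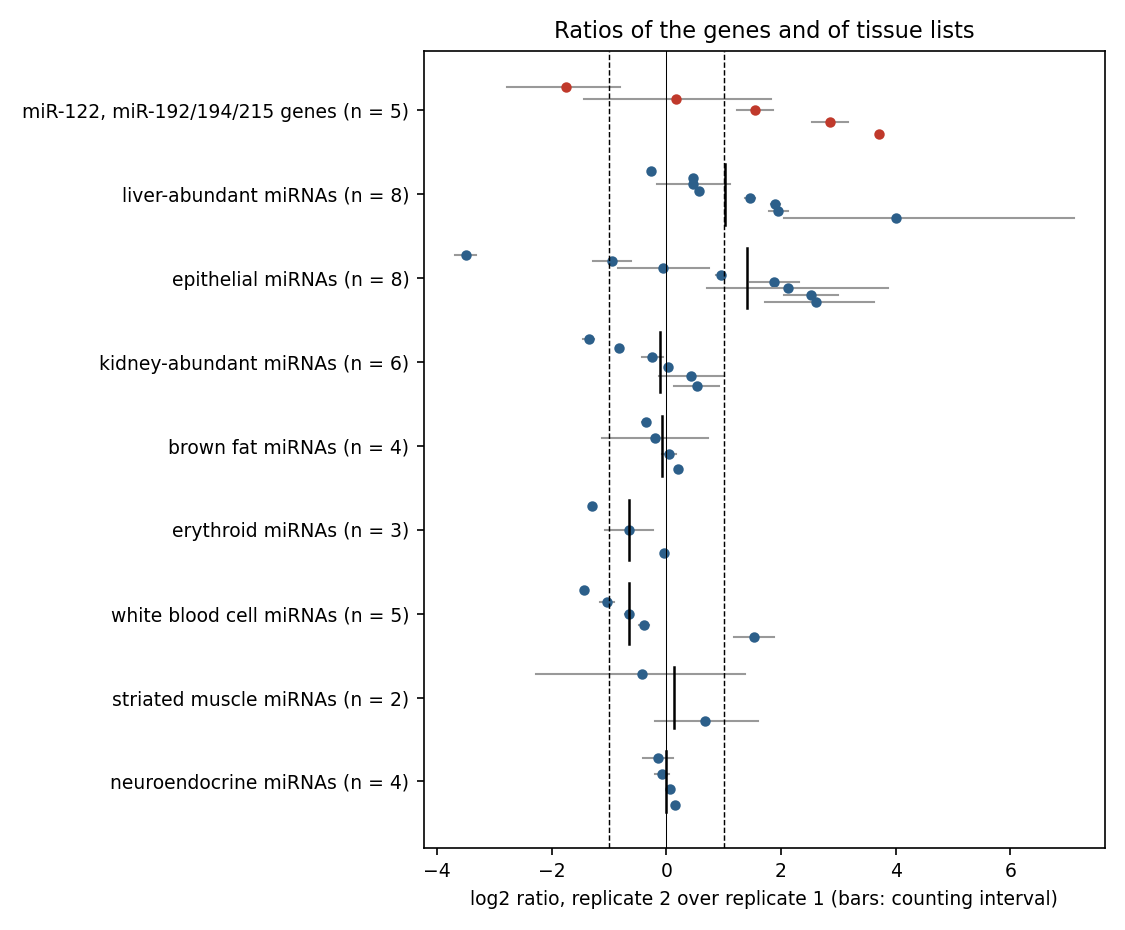
Log2 ratio of replicate 2 over replicate 1 for each tested gene (points, with 95% counting intervals), by list. Black marks are list medians, and none is drawn for the red points, which are Mir215, Mir194-1, Mir194-2, Mir192 and Mir122 from left to right. The liver-abundant list has its median at 1.02 and the epithelial list at 1.41, the other lists lie between -0.65 and 0.13, and dashed lines stand at 2-fold.

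In bulk RNA, more cells of a type cannot be told apart from more RNA per cell, and with 1 library on each side no ratio between these libraries has a replicate check.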

How the data were processed

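The authors deposited raw read counts per miRNA gene, 1 table for each of 2 microRNA-seq libraries, in 3 columns (either strand, strand of the gene, opposite strand) below 4 summary rows. Per the notes deposited beside the tables, the assembly is mm10 and the annotation GENCODE M21; aligner and counter, not given in the sources used here, remain unnamed. Counts on the strand of the gene were used, and summary rows stayed out of the totals. Replicate 2 held 8479789 reads, of which 29.4% mapped to several places, and replicate 1 held 7170915, of which 27.5% did. One count was worth 0.289 CPM in replicate 2 and 0.331 CPM in replicate 1. Reads carry no molecular identifiers in the tables, so intervals leave out PCR error.

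CPM, ratios with exact conditional binomial intervals, shares with exact Clopper-Pearson intervals and levels with exact Poisson intervals were computed with Python 3.11.15, NumPy 2.4.6, pandas 2.3.3 and SciPy 1.17.1, and checked on simulated data; matplotlib 3.10.9 drew the figures. No test of levels was made with 1 group of 2 libraries. Ratios need 10 or more counts over both libraries, and a count of 0 is stated with the level of 3 counts. Hairpins are GENCODE M21 transcripts and mature strands RefSeq entries (GRCm38.p6). Besides the 5 genes, the text names up to 4 leading genes of each of 9 lists, neighbours in mean level, the 4 genes of nearest ratio to Mir122 and Mir192, and genes with the same seed. Further list genes, Mir126a and Mir5107 were named after their values were seen. The members and lists were chosen with earlier results of these data known. Alternatives were unstranded counts, edgeR 4.0.16 TMM, DESeq2 1.42.0 size factors (R 4.3.3), totals without Mir122 or of all reads, other count minimums, folds and stretch lengths, and each library alone.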

Additional observations from a re-analysis of the deposited data

Results flagged for a closer look

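Reads mapping to several places enter no comparison here. They made up 29.4% of all reads of replicate 2 and 27.5% of those of replicate 1, and there was no control sample. Reads of exactly miR-194-5p have this property by their sequence, and their number was not measured. With 1 group of 2 libraries, no search was made for a sample far from the others or for a difference between groups.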

How the results depend on the processing

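The 5 genes have the same counts with and without regard to strand, so the 5 other scalings or strand settings change only the library scale. Each shifts all 5 log2 ratios alike, so the kept direction (25 of 25 values) is no check by further data. For Mir194-1, whose difference was not detectable, the log2 ratio was 0.03 with unstranded counts. Only Mir122 left its counting interval, with a log2 ratio of 3.57 for unstranded counts, 3.78 for totals without Mir122 and 3.66 for totals of all reads. Unstranded counts moved the median log2 ratio of all tested genes by -0.17. Lower by 2-fold in replicate 2 were then 2 of 8 epithelial, 0 of 1 erythroid and 1 of 4 white blood cell genes tested. Of all 387 genes tested at that setting, 48 were lower. Mir451a, Mir486 and Mir142 had 0 unstranded counts in both libraries and dropped out. Without Mir122 in the total, 1 of 5 white blood cell genes was lower, beside 37 of all 413 tested genes. At 4-fold, 2 of the 5 genes were higher and 0 lower. All genes past the fold numbered 27 higher and 24 lower of 311 at a minimum of 50 counts, and 172 and 153 of 743 with no minimum. Of the 413 tested genes they numbered 83 and 73 at 1.5-fold, and 13 and 16 at 4-fold. The share of the 5 genes was 6.46% in replicate 2 and 0.551% in replicate 1 for unstranded counts, 2.04% and 0.163% of all reads, and 0.0345% and 0.00836% without Mir122. The unstranded share is larger because its total is smaller, while the counts of the 5 genes stay the same. Mir126a and Mir378a, at ranks 1 and 2 by mean level, had 12 and 0 unstranded counts in replicate 2 and 6 and 0 in replicate 1. Each library alone gave Mir122 at 49474 CPM or 3786 CPM, Mir192 at 231 or 32.1, Mir194-2 at 107 or 36.7, Mir194-1 at 2.60 or 2.31 and Mir215 at 3.75 or 12.6. Stretches of 18 or 22 bases gave the same 2 genes with a shared stretch. The causes were not tested. No paired analysis was possible because there is 1 group. Depth limits Mir194-1 and Mir215, at 7 to 38 counts.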
